A study of Homo sapiens with 12 samples.

Results

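U6 is the small nuclear RNA at the catalytic centre of the spliceosome, and the RiboMeth-seq tables of this study list 8 methylated positions in it. The members described here are these 8 sites, namely all rows of U6 in the snRNA section of the authors' overview, out of 141 listed sites in 10 ribosomal and small nuclear RNAs. The choice used no measured difference between groups. The cells were HEK293 Flp-In T-Rex, derived from human embryonic kidney and built to take up inducible transgenes at a fixed locus. The study compared GPATCH4 knockout (KO) cells with wild-type (WT) cells, and WT cells transfected with siRNA against DHX15 (siDHX15) with WT cells given non-target siRNA (siNT). Each group had 3 libraries of total RNA, which the titles call biological replicates. The sources used here give neither the number of knockout clones, the siRNA dose nor the time after transfection.

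U6 is made by RNA polymerase III and pairs with U4 before activation of the spliceosome, then with U2 and with the 5′ splice site. Most of its 2′-O-methyl groups are placed by fibrillarin in box C/D ribonucleoproteins, whose small nucleolar RNA (snoRNA) pairs with U6 and so selects the nucleotide. LARP7 is known to bring U6 together with these snoRNAs. DHX15 is a DEAH-box RNA helicase that takes part in spliceosome disassembly and ribosome biogenesis, and GPATCH4 is a G-patch protein, a class that includes activators of such helicases. The levels of GPATCH4 and DHX15 were not measured by these tables.

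The 106 nucleotides of U6, counted from 1 at the 5′ end, hold all 8 sites within a stretch of 31 nt, from position 47 to position 77. They comprise Am47, Am53, Gm54, Cm60, Cm62, Cm63, Am70 and Cm77, where the first letter is the base and m stands for the methyl group. Am47 is the last base of ACAGAGA at positions 41 to 47, the motif that pairs with the 5′ splice site. Am53 and Gm54 are the first bases of AGC at positions 53 to 55, the triad of the catalytic core.

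The neighbours of a site enter its score, which is 1 minus its read ends over the weighted mean of the ends at 6 positions on each side. A methylated nucleotide is cut less often by alkali, so its score lies near 1. Being a ratio of counts, it does not give the share of molecules that carry the methyl group. Cm60 had 3 other listed sites within 6 nt, Am53, Gm54, Cm62 and Cm63 had 2, Am47 had 1, and Am70 and Cm77 had none.

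The overview names a guide snoRNA for 5 of the 8 sites and a question mark for Gm54, Cm63 and Am70. In the RefSeq annotation of GRCh38.p14, SNORD7, the guide of Am47, lies at chr17:35573657-35573753 within the long non-coding host gene SNHG30. SNORD8 and SNORD9, both listed for Am53, lie at chr14:21397293-21397401 and chr14:21392151-21392253 within CHD8, which encodes a chromatin remodeller. SNORD67, the guide of Cm60, lies at chr11:46762389-46762499 within CKAP5, a microtubule-associated protein gene. SNORD94, the guide of Cm62, lies at chr2:86135870-86136006 within PTCD3, a mitochondrial ribosomal protein gene. SNORD10, the guide of Cm77, lies at chr17:7576811-7576958 within EIF4A1, the gene of a translation initiation helicase. None of these guides is named for the 22 listed sites of the other snRNAs, while the overview gives no guide for rRNA sites. RefSeq annotates 5 U6 genes as snRNA, on chromosomes 14, 15 and 19, beside 1277 pseudogenes, and the tables do not say which copy a read came from.

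U6 was covered thinly, most of all in the siRNA experiment. The KO libraries held 5835 to 16668 read ends in U6 and the WT libraries 12083 to 24422. The siDHX15 libraries held 2160 to 7435 and the siNT libraries 2212 to 2522. All 12 libraries together held between 875096 and 16314082 ends per library over the 10 RNAs. Reads carried no molecular identifiers, so counting intervals below cover counting error only. Replicate libraries of a group differed over U6 beyond what counting noise allows (chi-square divided by degrees of freedom, 1.87 to 30.7), so none was counted as a duplicate.

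The share of all read ends that lay in U6 was 0.103, 0.152 and 0.0785% in the KO libraries, against 0.129, 0.139 and 0.184% in the WT libraries. These ranges overlapped, and an exact permutation test (two-sided) gave p = 0.3. The share was 0.247, 0.217 and 0.145% in the siDHX15 libraries, against 0.128, 0.127 and 0.148% in the siNT libraries. The mean was 0.203% ± 0.0521 with siDHX15 and 0.135% ± 0.0116 with siNT (SD, n = 3 each), an exact p of 0.2. With 3 against 3 libraries the smallest p is 0.1. Among snRNA ends alone U6 took 11.3% with siDHX15 and 10.7% with siNT (exact p = 0.7). It took 8.41% of them in KO and 10.97% in WT (exact p = 0.4). More U6 and less of the other RNAs cannot be told apart in such shares.

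In WT cells the mean score of each of the 8 sites lay above that of every unlisted U6 position. Their WT means ran from 0.648 ± 0.116 at Cm63 to 0.901 ± 0.0521 at Am47 (SD, n = 3), while the 86 unlisted positions that could be scored had a median of 0.102. Single libraries overlapped, with 0.554 in the lowest WT library at Cm63 and up to 0.794 in a WT library at unlisted position 7, which was singled out after its values were seen. In order, the WT means were 0.901 at Am47, 0.880 at Cm77, 0.860 at Am53, 0.846 at Gm54, 0.835 at Cm60, 0.826 at Cm62, 0.772 at Am70 and 0.648 at Cm63. No neighbours in that order differed beyond the range of their 3 libraries. The siNT order put Am47 first, at 0.936 ± 0.0300, and Am70 last, at 0.691 ± 0.151, again with all neighbours overlapping. In KO cells Cm60 was last at 0.594 ± 0.0985, and the only step without overlap lay between Am70 and Cm63, with a gap of 0.133. In siDHX15 cells Am70 was last at 0.426 ± 0.130, and the gap of 0.285 to Cm63 above it was the only step without overlap.

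**Figure D1:**
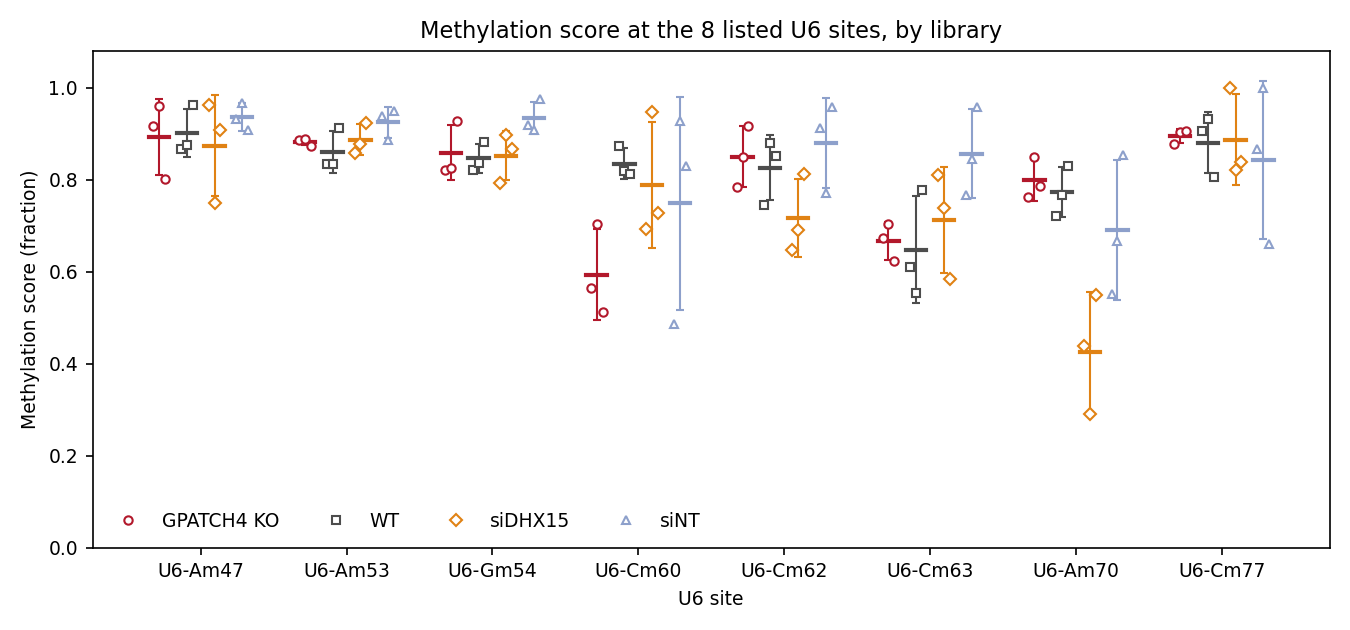
Methylation score (fraction, vertical axis) at the 8 listed U6 sites (horizontal axis) in GPATCH4 KO, WT, siDHX15 and siNT libraries. Open symbols are single libraries, thick bars are means and thin bars are ± 1 SD of 3 libraries. The KO scores at Cm60 (0.513 to 0.704) lie below the WT scores, and the siDHX15 scores at Am70 (0.290 to 0.550) lie below the siNT scores.

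In GPATCH4 KO cells no U6 site passed the test, in either direction. Over all 141 sites, limma called 24.8% lower and 0.709% higher in KO than in WT at an adjusted p under 0.05 (Benjamini-Hochberg over the 141). At an unadjusted p under 0.05 the U6 count was also 0 of 8, beside 33.3% of the 141. The other 7 differences, all but that of Cm60, lay between -0.00843 and 0.0271. The median difference over the 8 sites was 0.0167, beside -0.00607 over all 141.

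The exception in size was Cm60, the site for which SNORD67 is listed. Its scores were 0.564, 0.704 and 0.513 in the KO libraries, against 0.874, 0.819 and 0.812 in the WT libraries. Every KO library lay below every WT library. Sites that were lower in KO with no overlap of the ranges made up 31.2% of the 141. The difference was -0.241 (SE 0.108, 95% interval -0.484 to 0.000862), with a limma adjusted p of 0.149. That fit shares 1 spread per site over all groups. The SD at Cm60 was 0.0985 in KO and 0.0339 in WT, against 0.137 with siDHX15 and 0.232 with siNT. In 2 of 20 alternative settings the difference at Cm60 passed. It did so with KO and WT alone in the fit (limma adjusted p = 0.0311), where 22% of all sites were called lower. It also passed with read 5′ ends alone (-0.282, limma adjusted p = 0.0283), where the share over all sites was not counted.

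The counts behind Cm60 were small. The KO libraries had 104, 60 and 19 read ends at Cm60, against 31, 24 and 37 in the WT libraries. The mean count of the neighbours was 239, 202 and 39.0 in the KO libraries, against 246, 133 and 197 in the WT libraries. The counting interval of the score was 0.240 to 0.707 in the shallowest KO library and at the lowest 0.731 to 0.884 in a WT library. Thinned to 875096 ends per library, the depth of the shallowest, the difference in 1 random draw was -0.00450 (limma adjusted p = 0.978). That depth is of siDHX15 1, in the other experiment, while KO and WT libraries held 7437847 to 16314082 ends. The draw therefore cannot decide on the difference at their own depth.

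The scores at Cm60 were also set out by library index, a comparison chosen after its values were seen. The file headers name 6 indices, each used in 1 KO or WT library and in 1 siRNA library. The 3 siRNA libraries that carried the KO indices scored 0.487 (siNT 1), 0.693 (siDHX15 1) and 0.728 (siDHX15 3) at Cm60. The 3 that carried the WT indices scored 0.946 (siDHX15 2), 0.928 (siNT 2) and 0.831 (siNT 3). These sets did not overlap at Cm60, and they overlapped at the other 7 U6 sites. The counts were small, with 19 (siNT 1), 10 (siDHX15 1) and 16 (siDHX15 3) read ends at Cm60 for the KO indices. Those for the WT indices were 2 (siDHX15 2), 2 (siNT 2) and 4 (siNT 3). Most were read 3′ ends, 25 of 28 with siDHX15 and 24 of 25 with siNT. From read 5′ ends alone the sets met, with a score of 1.0 in siDHX15 3 and in each siRNA library with a WT index. Over all 141 sites, 4.26% were lower with the KO indices without overlap and 4.96% were higher, so 1 of 8 sites is little by itself. With the index as a block, the KO minus WT difference at Cm60 was 0.0556 (limma adjusted p = 0.828). No index occurs in both a KO and a WT library, so this value depends on the scores of the siRNA libraries. It also assumes an index effect that is equal in both experiments, which was not tested. Within the KO and WT experiment each index belongs to 1 library, so there index and genotype cannot be told apart.

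**Figure D2:**
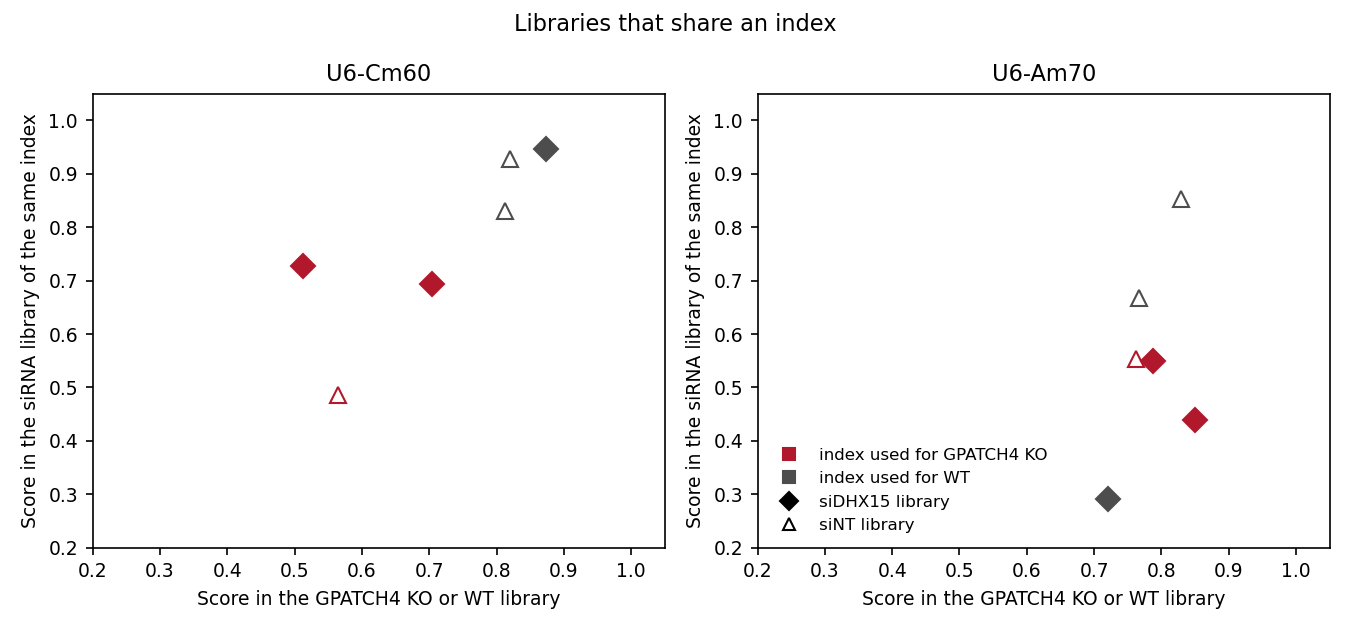
Methylation score (fraction) in the KO or WT library (horizontal axis) and in the siRNA library of the same index (vertical axis) at Cm60 and Am70. Each symbol is 1 of the 6 indices, coloured by its use for KO or WT and shaped by its use for siDHX15 or siNT. At Cm60 the 3 KO indices lie low in both experiments, with siRNA scores of 0.487 to 0.728 from 10 to 19 read ends per library.

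At the remaining sites KO and WT cells had nearly the same means. Am47 averaged 0.893 ± 0.0818 in KO and 0.901 ± 0.0521 in WT. Am53, in the catalytic triad, averaged 0.883 ± 0.00779 in KO and 0.860 ± 0.0456 in WT, and Gm54 beside it 0.858 ± 0.0601 in KO and 0.846 ± 0.0320 in WT. Cm62, guided by SNORD94, averaged 0.850 ± 0.0668 in KO and 0.826 ± 0.0710 in WT. These pairs of ranges all overlapped. Cm63 averaged 0.666 ± 0.0409 in KO and 0.648 ± 0.116 in WT. Am70 averaged 0.799 ± 0.0453 in KO and 0.772 ± 0.0546 in WT, and Cm77 0.895 ± 0.0156 in KO and 0.880 ± 0.0661 in WT. The 95% intervals still allow sizeable changes: that of Am53 ran from -0.0385 to 0.0837, the narrowest, and that of Am70 from -0.152 to 0.206.

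With siDHX15, Am70 fell, and it was the only U6 site that passed the test. Its scores were 0.438, 0.290 and 0.550 in the siDHX15 libraries, against 0.552, 0.667 and 0.852 in the siNT libraries. The ranges did not overlap, though the highest siDHX15 library and the lowest siNT library nearly met. The difference was -0.264 (SE 0.0797, 95% interval -0.443 to -0.0859), with a limma adjusted p of 0.0289. Of all 141 sites limma called 31.2% lower and 0% higher with siDHX15, so 1 of 8 is not more than the background. This fit shares 1 spread per site over the 4 groups. The SD at Am70 was 0.130 with siDHX15 and 0.151 with siNT, against 0.0453 in KO and 0.0546 in WT. With the siRNA groups alone in the fit, the SE at Am70 was 0.0977 and the site did not pass (limma adjusted p = 0.101). Am70 has no guide in the overview and no listed site within 6 nt, and it lies in the part of U6 that forms the internal stem-loop.

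The siDHX15 libraries had 18, 43 and 63 read ends at Am70, against 14, 12 and 7 in the siNT libraries. Nearly all were read 5′ ends, 113 of 124 with siDHX15 and 29 of 33 with siNT. Counting intervals of the scores ran from 0.113 to 0.667, 0.0442 to 0.486 and 0.424 to 0.654 in the siDHX15 libraries, against 0.249 to 0.755, 0.419 to 0.828 and 0.696 to 0.941 in the siNT libraries. Those of the first siDHX15 and the first siNT library overlapped over most of their length. From 5′ ends alone the difference was -0.346 (limma adjusted p = 0.0209), and from 3′ ends alone it was -0.0140 (limma adjusted p = 0.944). The value from 3′ ends rests on 11 ends with siDHX15 and 4 with siNT. The neighbour means of 3′ ends ran from 6.77 in siNT 1 to 29.8 in siDHX15 3, so depth limits it.

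The call at Am70 held in 11 of 21 alternative settings, with adjusted p from 0.00781 to 0.944. It was lost without siDHX15 replicate 1 (adjusted p = 0.0600), siDHX15 replicate 2 (difference -0.197, adjusted p = 0.0963), siNT replicate 2 (adjusted p = 0.0585) or siNT replicate 3 (-0.184, adjusted p = 0.1002), all by limma. Some settings in which the call held could not change the scores of Am70. They were listed neighbours left out, no floor, and neighbour means of at least 10, each with a difference of -0.264. The siNT libraries were among the shallowest, and in 1 random draw of 875096 ends per library the difference was -0.144 (limma adjusted p = 0.524).

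**Figure D3:**
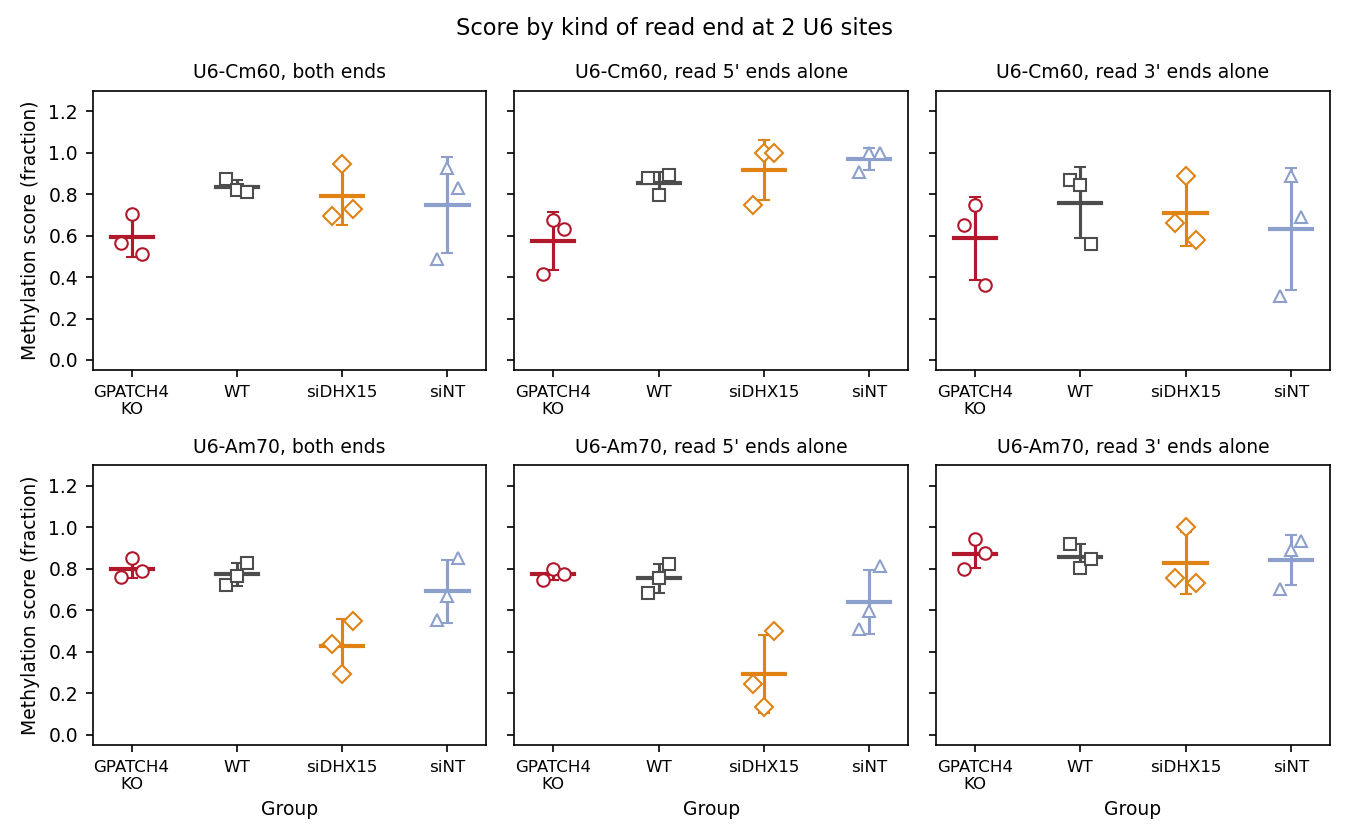
Methylation score (fraction, vertical axis) at Cm60 (upper row) and Am70 (lower row) from both kinds of read ends, read 5′ ends alone and read 3′ ends alone, by group. Open symbols are the 3 libraries of a group, thick bars their mean and thin bars ± 1 SD. At Am70 the siDHX15 libraries lie below the siNT libraries in read 5′ ends (difference -0.346) but not in read 3′ ends (-0.0140). Read 3′ ends at Am70 number only 11 with siDHX15 and 4 with siNT.

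In all, 6 of the 8 U6 differences between siDHX15 and siNT were below 0, and the median was -0.0721, beside -0.0569 over all 141 sites. Cm62 scored 0.648, 0.691 and 0.812 with siDHX15, against 0.911, 0.770 and 0.957 with siNT. Its ranges overlapped, and the difference of -0.163 (SE 0.0614) had a limma adjusted p of 0.0732. With the replicate number as a block in the fit of all groups, where 32.6% of the 141 sites were called lower, 3 U6 sites passed, namely Gm54 (limma adjusted p = 0.0494), Cm62 (0.0347) and Am70 (0.0175). With the block and the siRNA groups alone, where 29.8% were called lower, 1 passed, Am70 (limma adjusted p = 0.0403).

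Gm54, in the AGC triad, scored 0.793, 0.897 and 0.866 with siDHX15, against 0.920, 0.908 and 0.975 with siNT. All siDHX15 libraries lay below all siNT libraries, as they did at 44% of the 141 sites. The difference was -0.0822 (SE 0.0366, limma adjusted p = 0.119). Cm63 averaged 0.712 ± 0.115 with siDHX15 and 0.856 ± 0.0965 with siNT, and the limma adjusted p was 0.165. Only 26 read ends lay at Gm54 with siDHX15 and 9 with siNT, and 43 lay at Cm63 with siDHX15 and 12 with siNT.

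The other sites with known guides showed smaller differences. Am47 averaged 0.874 ± 0.110 with siDHX15 and 0.936 ± 0.0300 with siNT. Am53 averaged 0.887 ± 0.0336 with siDHX15 and 0.924 ± 0.0341 with siNT. Both pairs overlapped, with differences of -0.0620 and -0.0374. Cm60 averaged 0.789 ± 0.137 with siDHX15 and 0.749 ± 0.232 with siNT, and Cm77 averaged 0.886 ± 0.0987 with siDHX15 and 0.843 ± 0.171 with siNT. At Cm77 a score of exactly 1 in siDHX15 replicate 1 and in siNT replicate 2 stood for 0 read ends at the site, with neighbour means of 23.0 and 20.6 ends, the lowest among the U6 sites of those libraries.

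**Figure D4:**
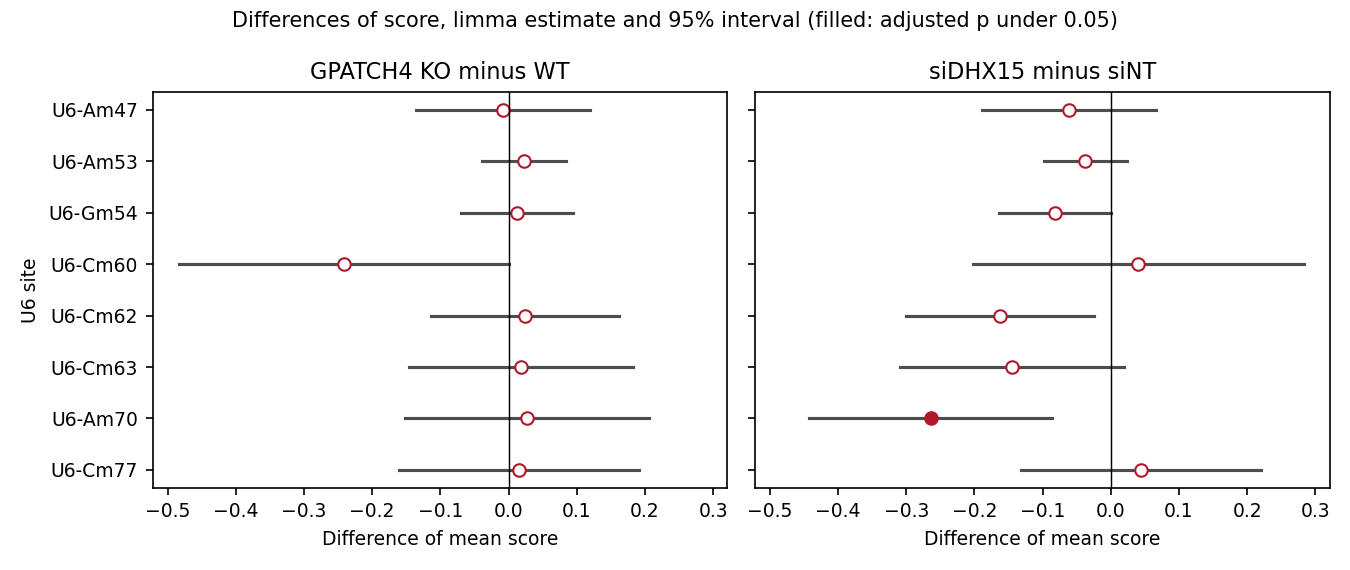
Difference of mean score (horizontal axis, fraction) at each of the 8 U6 sites (vertical axis) for GPATCH4 KO minus WT (left) and siDHX15 minus siNT (right). Points are limma estimates, filled where the adjusted p is under 0.05, and lines are 95% intervals. Am70 with siDHX15 (-0.264) is the only filled point, and Cm60 in KO (-0.241) has the widest interval of its panel.

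Whether a site responded differently to the knockout and to the knockdown was tested directly as the KO effect minus the siDHX15 effect. No U6 site passed (0 of 8), and 1 had an unadjusted p under 0.05, as had 42.6% of the 141 sites, whereas 17% of them were called with a negative and 20.6% with a positive difference by limma. Am70 differed by 0.292 (SE 0.113, limma adjusted p = 0.0708) and Cm60 by -0.282 (SE 0.153, limma adjusted p = 0.184). The knockout and siRNA libraries came from separate experiments of unequal depth, so depth and experiment cannot be told apart from the treatments in it.

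The control groups themselves gave a measure of how far U6 scores move between the experiments. Cm63 scored 0.766, 0.845 and 0.958 with siNT, against 0.611, 0.554 and 0.778 in WT. The ranges overlapped slightly, and the difference of 0.209 (SE 0.0733) had a limma adjusted p of 0.370. Gm54 was 0.0880 higher with siNT than in WT, with no overlap, as were 17.7% of all sites. limma called 0 of the 8 U6 sites and 0% of the 141 sites in siNT minus WT, and 3 of the 8 U6 sites had an unadjusted p under 0.05, beside 7.09% of the 141. Transfection, depth and experiment cannot be told apart in it.

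Scores along the whole of U6 placed the means of the listed sites above those of most other positions. In WT no unlisted position had a mean above the lowest listed site. In KO 1 unlisted position did, in siNT 2 did, and in siDHX15 5 did, where the lowest listed mean was that of Am70 at 0.426. In all, 8 unlisted positions reached a mean of 0.5 in at least 1 group, and no group had more than 5. Position 39 averaged 0.540 ± 0.0357 in KO and 0.457 ± 0.107 in WT. Position 65 averaged 0.390 ± 0.327 in KO and 0.543 ± 0.0905 in WT, and 0.325 ± 0.194 in siDHX15 and 0.509 ± 0.124 in siNT. Position 86 averaged 0.685 ± 0.109 in KO and 0.517 ± 0.0944 in WT, yet only 4 and 2 read 5′ ends lay there, beside 69 and 179 read 3′ ends.

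Positions 13, 15 and 16 passed the level of 0.5 in siNT alone, with means of 0.693, 0.737 and 0.538. They held only 8, 8 and 15 read 5′ ends there and no read 3′ end. Position 82 averaged 0.141 ± 0.112 in siDHX15 and 0.549 ± 0.0549 in siNT. It held 11 read 5′ ends and 59 read 3′ ends in siDHX15, against 0 and 20 in siNT. Position 100, near the 3′ end, averaged 0.533 ± 0.180 in siDHX15 and 0.290 ± 0.130 in siNT. There 65 read 3′ ends lay in siDHX15 and 53 in siNT, with no read 5′ end in either. No test was made at unlisted positions.

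**Figure D5:**
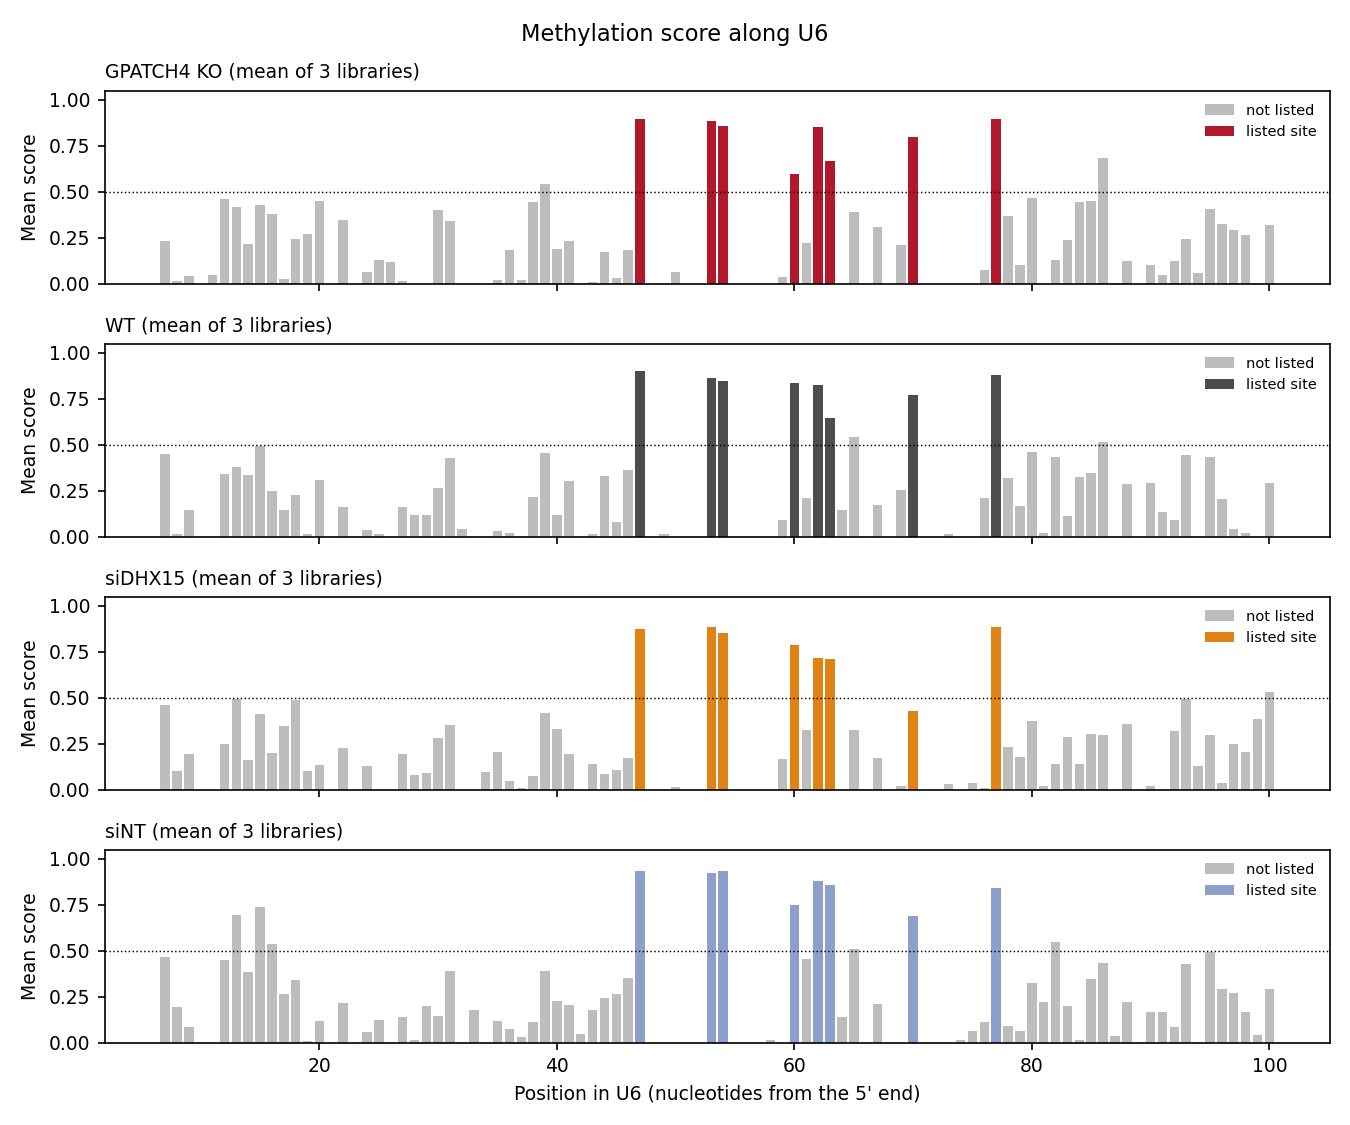
Mean methylation score (fraction, vertical axis, 3 libraries) along the positions of U6 (horizontal axis, nucleotides from the 5′ end), with 1 panel each for GPATCH4 KO, WT, siDHX15 and siNT. Coloured bars are the 8 listed sites, grey bars unlisted positions with 6 neighbours on each side, and the dotted line marks 0.5. In WT the mean of every listed site lies above that of all unlisted positions, and in siDHX15 Am70 (0.426) lies below 5 unlisted positions.

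Over the 12 libraries, the 3 closest matches in score between a U6 site and a listed site of another RNA were with rRNA. Of the listed sites outside U6, 111 lie in rRNA and 22 in other snRNAs, so rRNA matches are the more likely by number. Am53 lay closest to 28S-Gm3899, with a mean absolute difference of 0.0308 between their scores. Gm54 lay closest to 28S-Gm3627 (0.0347) and Am47 to 18S-Am468 (0.0396). These are likenesses of level, given as a description.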

How the data were processed

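RiboMeth-seq was done on total RNA from 12 libraries, 3 per group, grouped by genotype label. The authors deposited whole-number counts of read 5′ and 3′ ends per position and library, per the file headers. They also deposited a score per position, a fraction between 0 and 1. Per the submitters' processing notes, cutadapt 2.0 and Bowtie2 2.3.4.1 were used with hg38, in roles not stated. How reads of U6 copies were assigned is not given in the sources used here. The deposited fraction was recomputed from the deposited counts as 1 minus ends at the position divided by the average of its upstream and downstream weighted means, each over 6 positions (weights 1.0 to 0.5, floor 0). It matched at 8044 of 8044 scored positions within 1e-06. At 8 cap sites of other snRNAs the deposited recalculated fraction was used.

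Scores of 141 sites were fitted with limma 3.58.1 (R 4.3.3), with 4 group means. Tests were two-sided, p was adjusted over all 141 by Benjamini-Hochberg, and the threshold was 0.05. Exact permutation tests (scipy 1.17.1) compared the share of read ends. Intervals of single scores are exact Poisson 95% intervals of the ends at the site over the observed neighbour mean. The members and lists were chosen with earlier results of these data known. All 8 listed U6 sites are named, unlisted positions where a group mean reached 0.5, and at most 3 sites of other RNAs by likeness.

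Deviations from the group means over 141 sites were weakly correlated between same-numbered siDHX15 and siNT libraries (r = 0.117, 0.160 and 0.166). Pairing by replicate number entered alternative settings only, as a block, and the main fits had no block. Different-numbered ones gave -0.301 to 0.150, some as high as the same-numbered ones. The labels give numbers only, so the pairing rests on this check and is not established. Same-numbered KO and WT libraries gave r = 0.120, 0.0459 and -0.000863, and different-numbered ones gave -0.197 to 0.120. Alternatives were the groups of a contrast alone, a replicate block, leaving out each library, robust variance, edgeR 4.0.16 on counts, logit and centred scores, 2 neighbours, listed neighbours left out, either read end alone, no floor, thinning, neighbour means of at least 10 or 100, and an index block. The replicate block with the siRNA groups alone was added after seeing the data. Sequence of U6 is not reported here.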

Additional observations from a re-analysis of the deposited data

How the results depend on the processing

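Of 688 site values recomputed, 667 kept their side of the threshold, 10 lost a call and 11 gained one, and none that was called changed sign. The main fits called only Am70 with siDHX15, so most of the 667 were uncalled values that stayed uncalled. All 10 lost calls were at Am70 with siDHX15, whose call held in 11 of 21 settings. 47 values not called took the other sign. For GPATCH4 KO minus WT, the count of U6 sites called was 0, but 1 with those groups alone and 1 with read 5′ ends alone, each time Cm60. For siDHX15 minus siNT it was 1, and 0 with those groups alone, with edgeR on counts (Am70 adjusted p = 0.0872), with read 3′ ends alone, in thinned libraries, in centred libraries (Am70 -0.195, limma adjusted p = 0.0979) and with an index block (Am70 -0.254, limma adjusted p = 0.126). It was 3 with the replicate block in all groups and 1 with it in the siRNA groups alone. For the difference of the effects it was 0, and 1 with the replicate block (Am70, limma adjusted p = 0.0425) and 1 with 2 neighbours (Am70, limma adjusted p = 0.0275). The block changed no other count. The cause of these changes was not tested. No index occurs in both an siDHX15 and an siNT library, so the index-block value at Am70 depends on the KO and WT libraries. Leaving out each library in turn gave counts of 0 to 0 (KO minus WT and siNT minus WT), 0 to 2 (siDHX15 minus siNT; 2, Cm62 and Am70, without siDHX15 replicate 3, and Cm62 in place of Am70 without siNT replicate 2) and 0 to 1 (difference of the effects). The percentage of all sites called was not counted with read 5′ ends alone, 2 neighbours or a library left out, among other settings. The U6 counts in those settings therefore cannot be compared with a background. Without 1 library the difference in U6 share of ends was -0.0602 to -0.0231 percentage points for KO minus WT and 0.0467 to 0.0974 for siDHX15 minus siNT. With a neighbour mean of at least 100 no U6 site was left. With as few as 20.6 ends per neighbour in siNT libraries, depth limits these scores.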
